A study of Mus musculus with 9 samples.

Results

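The 42 genes described here mark the endothelium, the cell layer that lines blood vessels, and were read from whole mouse kidneys as bulk RNA. They were taken by symbol from a list of endothelial genes, and all 42 were found among the 56923 gene identifiers of the count table. A filter on low counts kept 17036 genes and 41 of the 42. Sele, the left-out gene, is described by its counts. Selp passed the filter only through the group where it was high, so its contrast with the other groups was partly set by the filter.

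Kidneys of wild-type mice were sequenced in 9 libraries, 3 from each of 3 groups. Sham mice had the operation without ischemia-reperfusion injury and carry PBS (buffer) as their treatment label. AKI_PBS mice had acute kidney injury and received PBS. AKI_PTPi_mEVs mice had the injury and received extracellular vesicles from milk, whose cargo was an siRNA that targets PTP1B, a tyrosine phosphatase (gene Ptpn1). The labels give no time after injury, age, sex or strain, and no group received empty vesicles or a control siRNA, so an effect of the vesicle and one of the siRNA cannot be told apart. The labels do not state whether each library is its own animal, and p-values therefore describe the variation among these libraries, some of which may be technical. Library totals lay between 9467851 and 11389479 counts.

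Endothelial cells sense VEGF and angiopoietins through receptor tyrosine kinases, are held together by VE-cadherin and claudin junctions, and draw their identity from ETS and SOX transcription factors. The kidney has several specialised beds: fenestrated glomerular capillaries, fenestrated peritubular capillaries, and the vasa recta of the medulla. Activated endothelium displays selectins, which let leukocytes roll along the vessel wall, and releases von Willebrand factor and angiopoietin-2 from storage granules. Injury of this layer is a known component of ischemic kidney injury.

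ETS factors bind sites built around GGAA and are used by many endothelial genes, so the RefSeq promoter table (build GRCm38.p6) was searched over the 250 bases before each gene's start for the letters GGAAG on both strands. It held promoters for 23 of the 42 genes, 29 promoters in all. Of these, 72.4% held the letters, against 64.1% of 32851 promoters of the same length. The sequences of 2 genes that rose in AKI_PBS kidneys, Flt1 and Robo4, and of 2 that fell, Cd34 and Igfbp5, are shown because all 4 hold the letters while their RNAs moved in opposite directions. Each is written 5′ to 3′ on the gene's strand, and capitals mark GGAAG or its complement CTTCC. They lie at chr5:147726012-147726261 (minus strand), chr9:37401722-37401971 (plus), chr1:194938571-194938820 (plus) and chr1:72874866-72875115 (minus).
Flt1: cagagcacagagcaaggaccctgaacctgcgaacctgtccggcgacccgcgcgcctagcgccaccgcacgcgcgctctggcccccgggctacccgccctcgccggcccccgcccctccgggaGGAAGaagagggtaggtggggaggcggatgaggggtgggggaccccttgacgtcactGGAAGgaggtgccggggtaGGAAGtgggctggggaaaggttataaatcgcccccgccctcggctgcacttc
Robo4: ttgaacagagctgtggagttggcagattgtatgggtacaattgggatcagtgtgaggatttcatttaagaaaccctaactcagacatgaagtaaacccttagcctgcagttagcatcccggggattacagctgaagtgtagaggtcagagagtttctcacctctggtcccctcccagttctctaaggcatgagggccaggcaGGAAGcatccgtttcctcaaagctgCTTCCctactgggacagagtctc
Cd34: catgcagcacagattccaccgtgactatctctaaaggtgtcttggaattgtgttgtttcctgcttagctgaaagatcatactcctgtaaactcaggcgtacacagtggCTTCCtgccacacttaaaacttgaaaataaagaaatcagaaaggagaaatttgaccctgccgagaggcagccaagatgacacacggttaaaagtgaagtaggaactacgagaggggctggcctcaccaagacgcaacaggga
Igfbp5: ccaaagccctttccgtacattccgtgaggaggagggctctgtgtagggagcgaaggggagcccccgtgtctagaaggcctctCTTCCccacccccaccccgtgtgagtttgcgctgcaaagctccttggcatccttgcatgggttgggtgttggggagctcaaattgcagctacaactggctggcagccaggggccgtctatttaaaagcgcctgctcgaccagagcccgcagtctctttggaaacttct
Among the genes with a promoter in the table, the letters were in 3 of 3 that rose, 4 of 7 that fell and 10 of 12 with no call. The SOX core ACAAT was in 24.1% of these promoters and 27.7% of all promoters, on either strand. GGGANTTCC, a form of the NF-kB site, was in 0 of the 29 and in 1.4% of all. A match of letters is not a binding site, and no match says only that these letters are not in the window.

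The endothelial genes did not move as 1 block after injury. In AKI_PBS against sham, 8 of the 41 tested genes rose and 12 fell (adjusted p under 0.05, Benjamini-Hochberg over all 17036 genes, edgeR's quasi-likelihood test, which is behind every adjusted p given here). Over all tested genes 55.7% were called in that comparison, 27.8% higher and 27.9% lower, so the share of endothelial genes called was not above the background. The median log2 fold change was -0.22 over the 41 genes and 0.03 over all, and single libraries moved the former to -0.06 (without AKI_PBS 1), -0.35 (without AKI_PBS 3) and -0.41 (without sham 3). The libraries of the groups did not overlap for 5 genes that were higher and 12 that were lower, against 62.1% of all genes in either direction. A change of at least 1 on the log2 scale was called upward for 4 genes (14.0% of all genes) and downward for 6 (16.7%). Selp, 1 of the 8 rises, had to differ to pass the filter. Among the others the largest rises were those of Nos3, S1pr1 and Flt1, and the largest falls those of Aplnr, Igfbp5, Icam2 and Angpt2. Leaving out the library sham 2 lowered the number called to 13, and the number of rises dropped to 4 without sham 3 and to 5 without sham 2, AKI_PBS 2 or AKI_PBS 3. The share of all genes called fell too, to 45.7% without sham 2, 48.3% without sham 3, 49.2% without AKI_PBS 2 and 54% without AKI_PBS 3.

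In vesicle-treated against AKI_PBS kidneys, 6 of the 41 rose and 12 fell, beside 51.1% of all genes called (25.4% higher, 25.8% lower) and medians of -0.05 over the 41 genes and -0.03 over all. That median of the 41 genes rested on single libraries: it was -0.28 without AKI_PTPi_mEVs 1, -0.20 without AKI_PBS 1 and 0.003 without AKI_PTPi_mEVs 2. Libraries did not overlap for 6 higher and 11 lower genes (57.9% of all genes in either direction), and calls of at least 1 on the log2 scale numbered 3 higher (13.4% of all genes) and 9 lower (13.4%). Against sham, 0 rose and 2 fell (Icam2 and Gpihbp1), beside 13.2% of all genes called (7.43% higher, 5.79% lower). The median there was -0.38 over the 41 genes and -0.01 over all, and 36 of the 41 estimates were below 0. The median of the 41 genes was -0.60 without AKI_PTPi_mEVs 1 and -0.26 without sham 1. There, libraries did not overlap for 6 genes, all lower (39.2% of all genes in either direction), and calls of at least 1 on the log2 scale numbered 1 lower (3.30% of all genes) and 0 higher (2.49%). These 3 comparisons share libraries, so a gene high in AKI_PBS pulls on both contrasts that use it, and opposite signs in them are not independent. Of the genes called in both contrasts with AKI_PBS, 6 were lower in AKI_PBS than in both other groups (Icam2, Cd34, Clec14a, Igfbp5, Aplnr and Cav1), and 8 were higher (Flt1, Cdh5, Robo4, Nos3, Ramp2, S1pr1, Gpihbp1 and Selp). Kdr, Flt4, Esam and Cldn5 were called only as lower in vesicle-treated than in AKI_PBS kidneys, and Tek, Mmrn2, Sox18, Emcn, Ehd3 and Angpt2 only as lower in AKI_PBS than in sham. No contrast called the remaining 17 tested genes. The share of all tested genes with each of these patterns is not given. Whether the patterns set the endothelial genes apart from the background was therefore not tested.

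**Figure D1:**
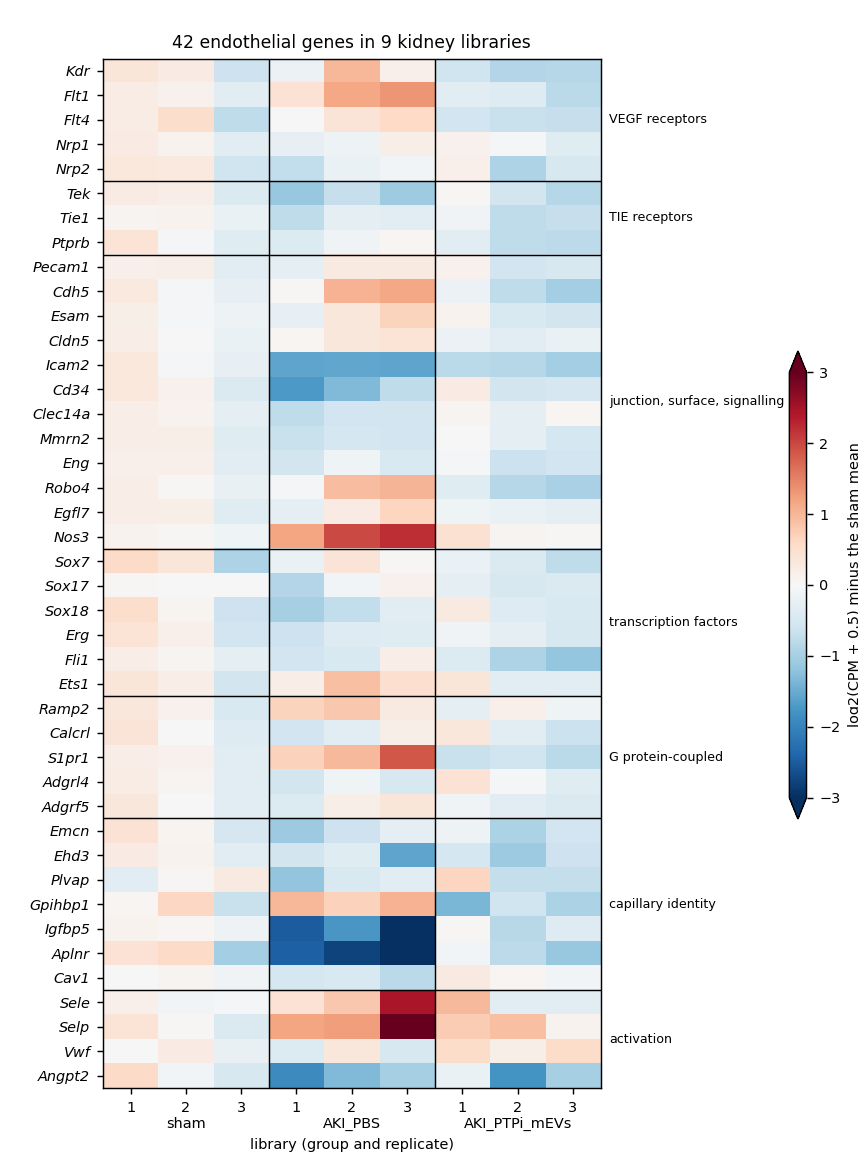
Level of each of the 42 genes (rows, grouped by role) in each of the 9 libraries (columns), as log2(CPM + 0.5) minus the mean of the 3 sham libraries; the colour scale ends at 3 in either direction, and values beyond it take the end colour. Within the AKI_PBS columns the Nos3, Flt1, S1pr1 and Selp rows are red while the Igfbp5, Aplnr, Icam2 and Cd34 rows are blue, and sham 3 is the bluest sham column for most genes.

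Single libraries stood apart across most of the genes. Sham 3 held the lowest sham level of 40 of the 41 tested genes, against 35.8% of all genes. AKI_PBS 1 held the lowest AKI_PBS level of 34 of 41, against 34.0% of all genes, and AKI_PTPi_mEVs 1 the highest level of its group for 36 of 41, against 32.9%. The summed level of the 42 genes was 2149, 1999 and 1568 CPM (counts per 1e+06 counts of the library, scaled by TMM factors) in sham 1 to 3, 1136, 1619 and 1629 in AKI_PBS, and 1896, 1263 and 1327 in vesicle-treated kidneys. Igfbp5 alone gave 20.3% to 23.4% of that sum in sham libraries and 3.14% to 7.47% in AKI_PBS. Without it the sums were 1712, 1579 and 1202 in sham, 1064, 1498 and 1578 in AKI_PBS, and 1483, 1035 and 1017 in vesicle-treated libraries, and the 3 groups overlapped. In bulk tissue, fewer endothelial cells and less RNA per cell cannot be told apart.

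Pecam1, the adhesion molecule CD31 found on nearly all endothelium, gives a reference within each library. Its levels were 50.3, 51.1 and 36.1 CPM in sham, 36.7, 54.6 and 54.9 in AKI_PBS, and 49.6, 30.3 and 32.2 in vesicle-treated kidneys. The 3 groups overlapped, and no contrast was called (AKI_PBS against sham 0.09 ± 0.22 on the log2 scale, SE, adjusted p 0.75). Vesicle-treated against AKI_PBS gave -0.38 ± 0.22 (adjusted p 0.17), and this became -0.62 (adjusted p 0.031) without AKI_PTPi_mEVs 1. Platelets and some leukocytes also carry Pecam1, and how far they shape its level was not tested.

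VEGF receptors transmit the main growth and survival signal of the endothelium. Flt1, which binds VEGF-A tightly and also exists as a soluble decoy, stood at 40.1, 37.0 and 26.6 CPM in sham, 45.8, 76.9 and 86.2 in AKI_PBS, and 27.3, 25.8 and 19.2 in vesicle-treated kidneys. All AKI_PBS libraries lay above all libraries of the other groups. It rose 2.01-fold in AKI_PBS against sham (log2 1.01 ± 0.23, adjusted p 0.0026) and was 2.89-fold lower in vesicle-treated than in AKI_PBS kidneys (log2 -1.53 ± 0.24, adjusted p 0.00021). Kdr, the main signalling receptor for VEGF-A, had 56.0, 51.7 and 27.8 CPM in sham, 38.2, 86.3 and 48.2 in AKI_PBS, and 28.2, 23.3 and 23.6 in vesicle-treated kidneys. The sham and AKI_PBS ranges overlapped and that contrast was not called (0.35 ± 0.29, adjusted p 0.33), whereas all vesicle-treated libraries were below all AKI_PBS libraries (-1.20 ± 0.30, adjusted p 0.0058; -0.78, still past the threshold, without AKI_PBS 2). Against sham, vesicle-treated Kdr gave -0.85 ± 0.30 (adjusted p 0.084), which passed the threshold without sham 3 (-1.10, adjusted p 0.032) and without AKI_PBS 2 (adjusted p 0.036).

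Flt4, the VEGF-C receptor of lymphatic and fenestrated endothelium, was also lower in vesicle-treated than in AKI_PBS kidneys (-1.08 ± 0.32, adjusted p 0.014), with all 3 vesicle-treated libraries between 3.41 and 3.76 CPM. Against sham it gave -0.82 ± 0.33 (adjusted p 0.12), and -1.12 (adjusted p 0.028) without sham 3. The neuropilins, co-receptors that are not confined to endothelium, were not called in any contrast. Nrp1 had mean levels of 98.0, 91.7 and 91.7 CPM in sham, AKI_PBS and vesicle-treated kidneys, and Nrp2 had 22.7, 22.3 and 11.9 CPM in sham, 10.8, 15.9 and 17.1 in AKI_PBS and 20.4, 9.28 and 12.9 in vesicle-treated libraries. In all, 1 of 5 VEGF receptor genes rose after injury and 0 fell, beside 27.8% and 27.9% of all genes. In vesicle-treated kidneys 3 of 5 were lower than in AKI_PBS, beside 25.8% of all genes.

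Angiopoietin signalling through TEK and its partner TIE1 helps to keep vessels quiescent. Tek, the angiopoietin receptor, measured 40.1, 38.7 and 24.8 CPM in sham, 15.1, 20.8 and 15.8 in AKI_PBS, and 34.4, 22.9 and 18.4 in vesicle-treated kidneys. Every AKI_PBS library was below every sham library, and Tek fell 2.0-fold (log2 -1.0 ± 0.25, adjusted p 0.0040). The vesicle-treated libraries overlapped both other groups (against AKI_PBS 0.55 ± 0.25, adjusted p 0.078; 0.75, adjusted p 0.030, without AKI_PTPi_mEVs 3). Its partner Tie1 had 34.8, 35.3 and 28.3 CPM in sham, 19.2, 26.5 and 26.0 in AKI_PBS, and 30.3, 19.0 and 19.9 in vesicle-treated kidneys, and AKI_PBS against sham gave -0.46 ± 0.20 (adjusted p 0.067; 0.033 without AKI_PTPi_mEVs 1). Vesicle-treated Tie1 against sham gave -0.50 ± 0.20 (adjusted p 0.12), and -0.75 (adjusted p 0.035) without the same library.

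Ptprb, the phosphatase VE-PTP that restrains TEK and VE-cadherin phosphorylation, had 71.2, 51.9 and 41.3 CPM in sham, 40.2, 49.3 and 55.9 in AKI_PBS, and 42.5, 31.1 and 30.7 in vesicle-treated kidneys. AKI_PBS 2 and 3 lay within the sham range and AKI_PBS 1 just below it (-0.18 ± 0.21, adjusted p 0.48). Vesicle-treated kidneys gave -0.48 ± 0.21 against AKI_PBS (adjusted p 0.071) and -0.66 ± 0.21 against sham (adjusted p 0.055). Both values are close to the threshold: the first passed without AKI_PBS 1 (-0.59, adjusted p 0.042) or AKI_PTPi_mEVs 1 (-0.64, adjusted p 0.035), and the second without sham 3 (adjusted p 0.032), AKI_PBS 1 (0.049), AKI_PBS 3 (0.037) or AKI_PTPi_mEVs 1 (0.040).

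Among the 12 junction, surface and signalling genes, 3 rose and 4 fell after injury, beside 27.8% and 27.9% of all genes. Nos3, the endothelial nitric oxide synthase, had 8.23, 7.81 and 7.01 CPM in sham, 18.1, 31.5 and 37.5 in AKI_PBS, and 10.7, 8.08 and 7.91 in vesicle-treated kidneys. The AKI_PBS libraries were all at least 18.1 CPM and every other library was at most 10.7. Nos3 rose 3.77-fold after injury (log2 1.91 ± 0.25, adjusted p 4.7e-05), was 3.24-fold lower with vesicles (-1.70 ± 0.25, adjusted p 0.00015), and gave 0.22 ± 0.26 in vesicle-treated against sham kidneys (adjusted p 0.64).

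Cdh5, which encodes VE-cadherin of the adherens junction, had 19.1, 14.9 and 13.1 CPM in sham, 15.8, 32.3 and 35.4 in AKI_PBS, and 13.6, 8.95 and 7.36 in vesicle-treated kidneys. AKI_PBS 1 lay within the sham range while AKI_PBS 2 and 3 were above it. It rose after injury (0.83 ± 0.29, adjusted p 0.029), but not past the threshold without sham 2, sham 3, AKI_PBS 2 or AKI_PBS 3 (adjusted p 0.088 to 0.11). All vesicle-treated libraries were below all AKI_PBS libraries (-1.47 ± 0.30, adjusted p 0.0014). Robo4, a guidance receptor that stabilises the barrier, had the same calls, at 0.71 ± 0.26 (adjusted p 0.033) and -1.45 ± 0.27 (adjusted p 0.00073), and its rise was lost without any of those same 4 libraries (adjusted p 0.082 to 0.12). Against sham, Robo4 in vesicle-treated kidneys gave -0.74 ± 0.27 (adjusted p 0.090; 0.028 without AKI_PBS 1).

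Esam and Cldn5, components of tight junctions, were not called after injury (0.30 ± 0.23 and 0.27 ± 0.14) and were lower in vesicle-treated than in AKI_PBS kidneys. Cldn5 fell there by 0.52 on the log2 scale (SE 0.14, adjusted p 0.0093), with 56.6, 69.2 and 71.8 CPM in AKI_PBS and 47.7, 43.0 and 47.2 in vesicle-treated libraries. Esam gave -0.58 ± 0.23 (adjusted p 0.048), and lost the call without any of 7 libraries (all but AKI_PBS 1 and AKI_PTPi_mEVs 1, adjusted p 0.061 to 0.20; -0.34 without AKI_PBS 3). Without AKI_PBS 1, both passed the threshold as higher in AKI_PBS than in sham (Esam 0.51, adjusted p 0.048; Cldn5 0.36, adjusted p just under the threshold).

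The other direction was led by Icam2, an adhesion molecule present on resting endothelium and on platelets. It had 21.8, 16.6 and 14.4 CPM in sham, 5.45, 5.58 and 5.48 in AKI_PBS, and 9.73, 9.28 and 8.24 in vesicle-treated kidneys. No 2 groups overlapped. Icam2 fell 3.19-fold after injury (log2 -1.67 ± 0.20, adjusted p 2.5e-05), was 1.65-fold higher with vesicles than in AKI_PBS (0.72 ± 0.21, adjusted p 0.011), and was still 1.93-fold below sham (-0.95 ± 0.20, adjusted p 0.0088).

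Cd34, a sialomucin of capillary endothelium and of some stromal and blood progenitor cells, had 52.8, 46.3 and 31.5 CPM in sham, 12.5, 16.6 and 24.7 in AKI_PBS, and 50.9, 28.9 and 29.8 in vesicle-treated kidneys. AKI_PBS lay below both other groups without overlap, 2.42-fold under sham (log2 -1.28 ± 0.28, adjusted p 0.0022) and with vesicle-treated kidneys 2.04-fold above it (1.03 ± 0.28, adjusted p 0.0094). Clec14a, a C-type lectin of the endothelial surface, moved alike by smaller amounts (-0.66 ± 0.19, adjusted p 0.0087, and 0.62 ± 0.19, adjusted p 0.014). Mmrn2, the matrix protein that binds it, fell after injury (-0.62 ± 0.19, adjusted p 0.013; 0.052 without sham 1 and 0.058 without sham 2) and was not called with vesicles (0.34 ± 0.19, adjusted p 0.15).

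Eng, the endothelial TGF-beta co-receptor, was among the most abundant of the genes but gave -0.39 ± 0.19 after injury (adjusted p 0.097; -0.53, adjusted p 0.039, without sham 3). Egfl7, a secreted protein of vessel walls, gave 0.23 ± 0.21 after injury (adjusted p 0.38) and -0.46 ± 0.21 with vesicles against AKI_PBS (adjusted p 0.088; -0.67, adjusted p 0.011, without AKI_PBS 1). Of the 12 genes, 3 were higher and 5 lower in vesicle-treated than in AKI_PBS kidneys, beside 25.4% and 25.8% of all genes.

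**Figure D2:**
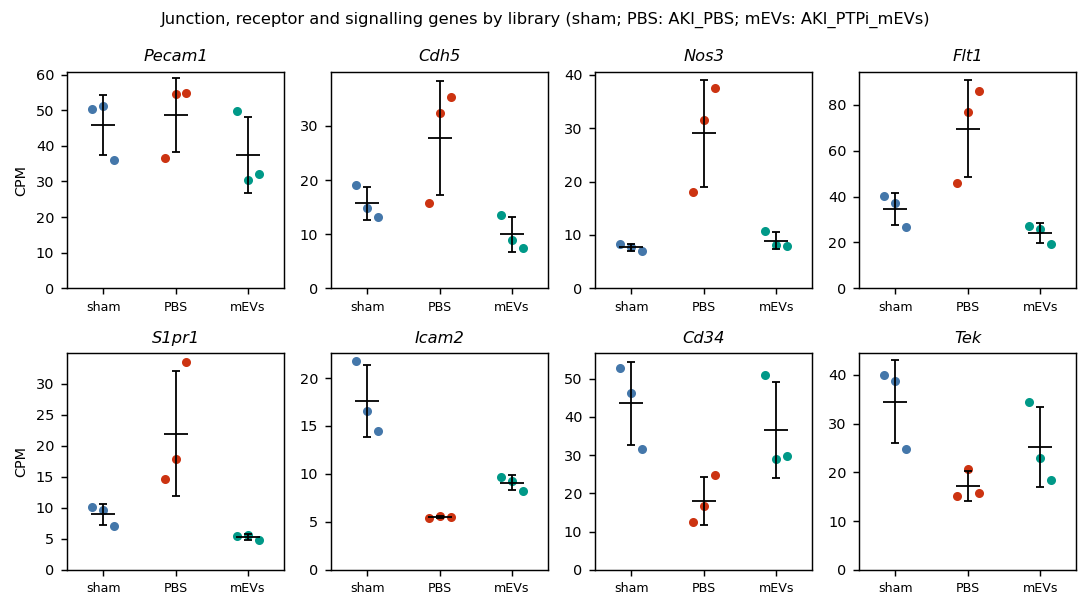
CPM of 8 endothelial genes in each library (points), with the mean (long bar) and SD (whiskers) of the 3 libraries of a group. Pecam1 overlaps between groups, Nos3, Flt1 and S1pr1 are highest in all AKI_PBS libraries, Cdh5 is highest in 2 of them, and Icam2, Cd34 and Tek are lower in every AKI_PBS library than in every sham library.

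Of the 6 transcription factors, 1 was called after injury and 0 with vesicles against AKI_PBS, beside 55.7% and 51.1% of all genes. SOX18, SOX17 and SOX7 direct vascular and arterial identity, and ERG, FLI1 and ETS1 are ETS factors of endothelial cells, of which FLI1 and ETS1 are also made by leukocytes. Sox18 had 20.2, 14.7 and 8.84 CPM in sham, 6.66, 8.15 and 10.8 in AKI_PBS, and 16.8, 10.4 and 10.003 in vesicle-treated kidneys. It fell after injury (-0.77 ± 0.31, adjusted p 0.047), although sham 3 lay inside the AKI_PBS range, and the call was lost without sham 1, sham 2, AKI_PBS 1 or AKI_PBS 2 (adjusted p 0.093 to 0.23; -0.48 without sham 1).

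Ets1 had 32.7, 28.8 and 17.0 CPM in sham, 29.0, 47.4 and 36.1 in AKI_PBS, and 32.4, 20.1 and 19.7 in vesicle-treated kidneys. Its groups overlapped (0.52 ± 0.26 after injury, adjusted p 0.11; -0.64 ± 0.26 with vesicles, adjusted p 0.060). The second value passed the threshold without sham 3 (adjusted p 0.037), AKI_PBS 1 (0.034) or AKI_PTPi_mEVs 1 (0.019). Erg was a low gene, with 5.29, 4.37 and 2.44 CPM in sham, 2.33, 2.83 and 2.92 in AKI_PBS and 3.58, 3.06 and 2.64 in vesicle-treated libraries. Sham 3 again overlapped AKI_PBS (-0.58 ± 0.31, adjusted p 0.12; -0.85, adjusted p 0.029, without sham 3).

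Sox7, Sox17 and Fli1 gave -0.05, -0.22 and -0.27 after injury. Fli1 was nearest to a call in vesicle-treated kidneys, at -0.58 ± 0.27 against AKI_PBS (adjusted p 0.085) and -0.84 ± 0.27 against sham (adjusted p 0.053). Without AKI_PTPi_mEVs 1 both passed (-0.82, adjusted p 0.032, and -1.10, adjusted p 0.033). The first also passed without AKI_PBS 1 (adjusted p just under the threshold), and the second without AKI_PBS 1 (0.047) or AKI_PBS 3 (0.020). Sox17 against AKI_PBS gave -0.18 ± 0.22, and -0.43 (adjusted p 0.045) without AKI_PBS 1.

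Among the G protein-coupled receptors and their partners, S1pr1 and Ramp2 were called. S1pr1, the sphingosine 1-phosphate receptor that tightens the endothelial barrier and is also present on lymphocytes, had 10.2, 9.67 and 7.01 CPM in sham, 14.6, 17.8 and 33.5 in AKI_PBS, and 5.41, 5.68 and 4.84 in vesicle-treated kidneys. No 2 groups overlapped. It rose after injury (log2 1.29 ± 0.28, adjusted p 0.0019; 0.85, still past the threshold, without AKI_PBS 3) and was 4.13-fold lower with vesicles than in AKI_PBS (-2.05 ± 0.30, adjusted p 0.00013). Vesicle-treated against sham gave -0.75 ± 0.30 (adjusted p 0.12; 0.025 without AKI_PBS 3).

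Ramp2, the protein that makes the calcitonin receptor-like receptor a receptor for adrenomedullin, had 17.1, 14.5 and 9.55 CPM in sham, 21.4, 23.8 and 16.1 in AKI_PBS, and 10.9, 14.96 and 12.1 in vesicle-treated kidneys. AKI_PBS 3 overlapped sham, and both of its calls were marginal. The rise after injury (0.57 ± 0.23, adjusted p 0.049) was lost without any one of 7 libraries (all but sham 1 and AKI_PBS 3, adjusted p 0.054 to 0.20; 0.36 without sham 3), and the lower level with vesicles (-0.69 ± 0.23, adjusted p 0.024) was lost without AKI_PBS 1, AKI_PBS 2, AKI_PTPi_mEVs 1 or AKI_PTPi_mEVs 3 (adjusted p 0.057 to 0.096). Calcrl, the receptor itself, gave -0.25 ± 0.29 after injury (adjusted p 0.48) and 0.06 ± 0.29 with vesicles (adjusted p 0.88).

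Adgrl4, an adhesion receptor of angiogenic endothelium, had 33.9, 30.6 and 23.3 CPM in sham, 19.5, 26.4 and 20.7 in AKI_PBS, and 39.0, 28.2 and 22.3 in vesicle-treated kidneys, and was not called (-0.40 ± 0.22 and 0.43 ± 0.22; the second passed, at 0.61 and adjusted p 0.039, without AKI_PTPi_mEVs 3). Adgrf5, another adhesion receptor, gave 0.05 ± 0.21 after injury and -0.36 ± 0.21 with vesicles (adjusted p 0.16; -0.55, adjusted p 0.028, without AKI_PBS 1). In all, 2 of the 5 genes rose after injury (27.8% of all genes), and both were lower with vesicles than in AKI_PBS (25.8% of all genes).

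The 7 genes of capillary identity mark particular beds. After injury 5 of the 7 fell and 1 rose, beside 27.9% and 27.8% of all genes. The median log2 fold change of the 7 was -0.67. Igfbp5, a binding protein for insulin-like growth factors found in kidney capillaries and also made by stromal and other cells, had 437, 421 and 366 CPM in sham, 72.0, 121 and 51.1 in AKI_PBS, and 414, 228 and 309.5 in vesicle-treated kidneys. AKI_PBS lay far below both other groups, which overlapped each other. It fell 5.01-fold after injury (log2 -2.33 ± 0.29, adjusted p 3.9e-05) and was 3.90-fold higher with vesicles than in AKI_PBS (1.96 ± 0.29, adjusted p 0.00016), while vesicle-treated against sham gave -0.36 ± 0.28 (adjusted p 0.42). Aplnr, the apelin receptor of venous and capillary endothelium, had 8.92, 9.77 and 2.95 CPM in sham, 0.778, 0.515 and 0.353 in AKI_PBS, and 6.06, 3.49 and 2.64 in vesicle-treated kidneys. It had the deepest fall of the 41 genes, 12.9-fold (log2 -3.69 ± 0.53, adjusted p 8.6e-05), and was 7.32-fold higher with vesicles (2.87 ± 0.55, adjusted p 0.00086). The AKI_PBS libraries held only 9, 6 and 4 counts of Aplnr, so it passed the low-count filter through the other groups. Both fold sizes rest on these low counts. Cav1, the coat protein of caveolae, which smooth muscle and fibroblasts also make, had 52.6, 55.1 and 48.3 CPM in sham, 35.8, 37.9 and 29.3 in AKI_PBS, and 62.4, 54.3 and 49.4 in vesicle-treated kidneys. The fall (-0.60 ± 0.14, adjusted p 0.0036) and the higher level with vesicles (0.69 ± 0.14, adjusted p 0.0017) were small, and AKI_PBS overlapped neither other group.

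Emcn and Ehd3, of which EHD3 is a membrane-trafficking protein of glomerular endothelium and endomucin an anti-adhesive sialomucin of capillaries and veins, fell after injury and were not called with vesicles. Emcn had 129, 100.2 and 66.3 CPM in sham, 44.6, 61.5 and 79.2 in AKI_PBS, and 85.4, 49.2 and 63.8 in vesicle-treated kidneys. Sham 3 lay inside the AKI_PBS range, and the fall (-0.67 ± 0.27, adjusted p 0.049) lost its call without sham 1 (-0.44), sham 2, AKI_PBS 1, AKI_PBS 2 or AKI_PTPi_mEVs 3 (adjusted p 0.060 to 0.19). Ehd3 had 69.9, 62.4 and 45.7 CPM in sham, 39.6, 45.3 and 19.3 in AKI_PBS, and 40.1, 27.4 and 38.0 in vesicle-treated kidneys. All libraries of both injured groups lay below all sham libraries, at -0.77 ± 0.27 in AKI_PBS (adjusted p 0.028) and -0.75 ± 0.27 in vesicle-treated kidneys (adjusted p 0.088). The first call was lost without sham 1, sham 2 or AKI_PBS 3 (adjusted p 0.055 to 0.095; -0.48 without AKI_PBS 3), and the second value passed the threshold without AKI_PBS 3 (adjusted p 0.013).

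Plvap, which forms the diaphragms of fenestrated peritubular capillaries and is low in mature glomerular ones, had 101, 129 and 151 CPM in sham, 55.0, 91.1 and 99.8 in AKI_PBS, and 197, 76.1 and 76.0 in vesicle-treated kidneys. Sham and AKI_PBS did not overlap, but the contrast was not called (-0.63 ± 0.36, adjusted p 0.15), and AKI_PTPi_mEVs 1 stood far above the other libraries of its group. Without that library AKI_PBS against sham gave -0.64 (adjusted p 0.021). Plvap was the only tested gene with its highest sham level in sham 3.

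Gpihbp1, which carries lipoprotein lipase to the capillary lumen, went the other way. It had 10.2, 15.4 and 5.99 CPM in sham, 19.97, 16.3 and 20.7 in AKI_PBS, and 3.49, 6.33 and 4.84 in vesicle-treated kidneys. AKI_PBS lay above both other groups, with a rise of 0.84 ± 0.30 (adjusted p 0.028) that lost its call without sham 1, sham 3, AKI_PBS 1 or AKI_PBS 3 (adjusted p 0.060 to 0.11; 0.56 without sham 3). With vesicles it was 3.90-fold lower than in AKI_PBS (-1.96 ± 0.32, adjusted p 0.00028) and 2.17-fold lower than in sham (-1.12 ± 0.32, adjusted p 0.037). The latter call was lost without sham 1, sham 2 or any single vesicle-treated library (adjusted p 0.052 to 0.19; -0.73 without sham 2). Summed over the 7 genes, levels were 687 to 808 CPM in sham, 268 to 374 in AKI_PBS and 445 to 809 in vesicle-treated kidneys, most of it Igfbp5 outside AKI_PBS. In vesicle-treated against AKI_PBS kidneys 3 of the 7 were higher and 1 lower, beside 25.4% and 25.8% of all genes, with a median of 0.51.

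The 4 activation genes did not move together. Selp, P-selectin of endothelial and platelet granules, had 0.392, 0.186 and 0 CPM in sham, 1.04, 1.12 and 5.74 in AKI_PBS, and 0.642, 0.764 and 0.220 in vesicle-treated kidneys, or 6, 90 and 16 counts over the libraries of each group. Every AKI_PBS library was above every other, and AKI_PBS 3 stood apart. The fitted rise was 3.67 ± 0.89 on the log2 scale (adjusted p 0.0037), from counts in sham close to the floor of 3 over the group, and 2.40 without AKI_PBS 3. Since Selp passed the low-count filter only through AKI_PBS, this call is no independent support for a rise. The lower level with vesicles (-2.24 ± 0.75, adjusted p 0.025) shrank to -0.96 (adjusted p 0.21) without AKI_PBS 3, and also lost its call without AKI_PTPi_mEVs 1 or 3 (adjusted p 0.063 and 0.090).

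Sele, E-selectin, made by activated endothelium, was at the edge of detection, with 4 counts over the sham libraries, 44 over AKI_PBS and 8 over vesicle-treated. The levels were 0.196, 0.0930 and 0.102 CPM in sham, 0.346, 0.60 and 2.92 in AKI_PBS, and 0.734, 0 and 0 in vesicle-treated kidneys, all 8 vesicle-treated counts coming from 1 library. AKI_PBS lay above sham without overlap, and a two-sided exact permutation test gave p = 0.1, the smallest that 3 against 3 allows. Vesicle-treated against AKI_PBS gave p = 0.3 in the same exact test. As with Selp, AKI_PBS 3 was the highest library.

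Vwf, von Willebrand factor, is also made by megakaryocytes and is sparse in kidney capillaries. It had 5.19, 6.23 and 4.37 CPM in sham, 3.80, 6.69 and 3.62 in AKI_PBS, and 7.89, 6.004 and 7.91 in vesicle-treated kidneys. It was not called after injury (-0.16 ± 0.28) or with vesicles (0.63 ± 0.28, adjusted p 0.076; 0.97, adjusted p 0.014, without AKI_PBS 2). Angpt2, the angiopoietin that opposes TEK signalling, fell. It had 52.2, 32.9 and 24.8 CPM in sham, 8.99, 13.7 and 17.2 in AKI_PBS, and 30.3, 9.72 and 17.4 in vesicle-treated kidneys. AKI_PBS did not overlap sham (2.75-fold lower, log2 -1.46 ± 0.39, adjusted p 0.0078), while the vesicle-treated libraries spread across both (0.53 ± 0.39 against AKI_PBS, adjusted p 0.28; -0.93 ± 0.38 against sham, adjusted p 0.13, and -1.43, adjusted p 0.036, without AKI_PTPi_mEVs 1). Of the 3 tested activation genes, 1 rose and 1 fell after injury, beside 27.8% and 27.9% of all genes.

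**Figure D3:**
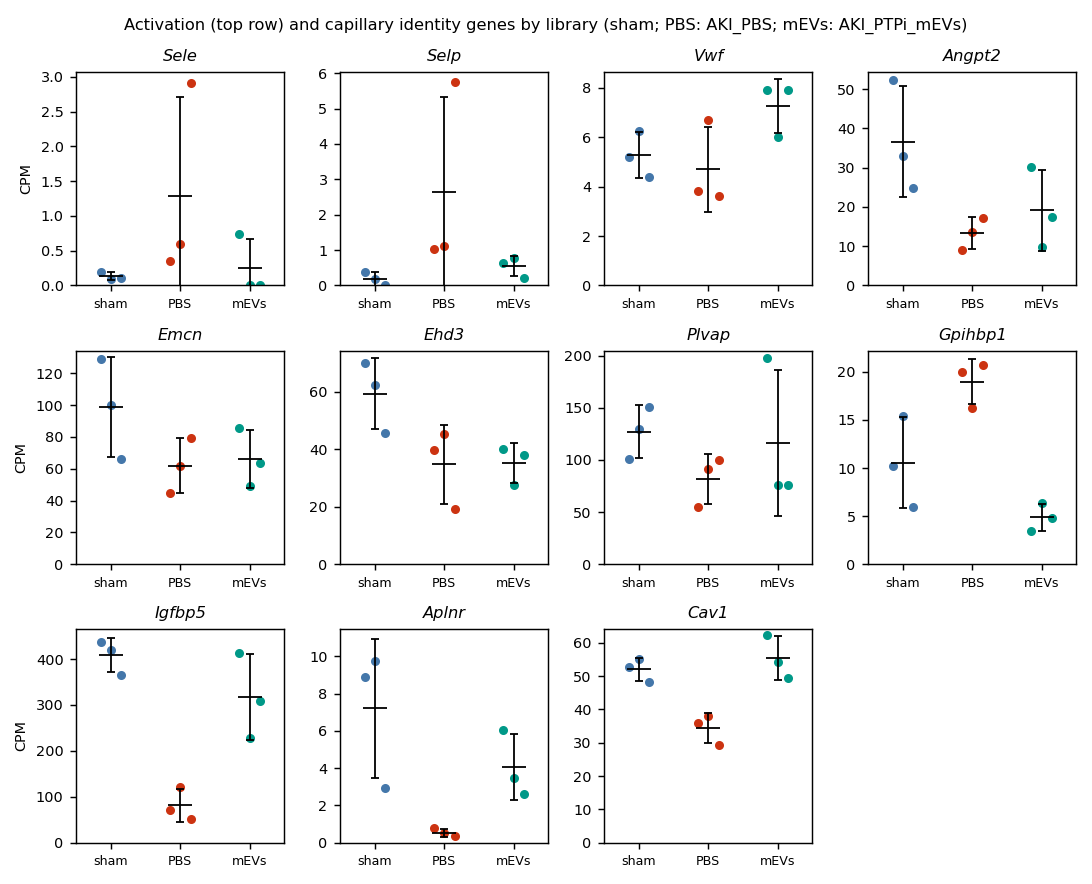
CPM of the 4 activation genes (top row) and 7 capillary identity genes in each library (points), with the mean (long bar) and SD (whiskers, ending at the axis where they would pass 0) of the 3 libraries of a group. By group mean, Selp, Sele and Gpihbp1 are highest in AKI_PBS, Selp and Sele most of all in 1 library. Vwf, Angpt2, Emcn, Ehd3, Plvap, Igfbp5, Aplnr and Cav1 have their lowest mean there, although Ehd3 is nearly the same in vesicle-treated kidneys. Libraries of Sele, Vwf, Angpt2, Emcn, Ehd3 and Plvap overlap between AKI_PBS and vesicle-treated kidneys.

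Set against Pecam1 in the same library, the genes still divided into those above and those below their sham level in AKI_PBS. Nos3 counts were 16.4%, 15.3% and 19.4% of the Pecam1 count in sham, 49.3%, 57.7% and 68.3% in AKI_PBS, and 21.6%, 26.6% and 24.6% in vesicle-treated kidneys. Flt1 counts were 79.7%, 72.5% and 73.8% in sham, 125%, 141% and 157% in AKI_PBS, and 54.9%, 84.9% and 59.7% with vesicles. Cdh5, at 38.0%, 29.1% and 36.3% in sham and 43.2%, 59.3% and 64.6% in AKI_PBS, no longer overlapped between these groups. On this scale Nos3, Flt1 and Cdh5 were higher in every AKI_PBS library than in every sham library. Gpihbp1, which did not overlap in CPM, did so here, at 20.3%, 30.2% and 16.6% in sham and 54.5%, 29.9% and 37.7% in AKI_PBS. Ramp2 overlapped on both scales.

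The genes that fell also did so relative to Pecam1. Cd34 counts were 105%, 90.7% and 87.3% of the Pecam1 count in sham, 34.2%, 30.5% and 45.1% in AKI_PBS, and 103%, 95.3% and 92.5% in vesicle-treated kidneys. Tek was at 79.7%, 75.8% and 68.7%, then 41.3%, 38.1% and 28.8%, then 69.3%, 75.5% and 57.0%. Emcn was at 257%, 196% and 184% in sham, 122%, 113% and 144% in AKI_PBS, and 172%, 162% and 198% with vesicles, so its sham and AKI_PBS libraries, which overlapped in CPM, were apart on this scale. Icam2 was at 43.3%, 32.4% and 40.0%, then 14.9%, 10.2% and 9.98%, then 19.6%, 30.6% and 25.6%. These ratios are descriptions without a test, and they hold only as far as Pecam1 follows the endothelium alike in all groups.

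Per length (RPKM, CPM per kilobase of exons in GENCODE M21), the most abundant of the 42 genes in sham were Igfbp5 at 67.9 ± 6.16 RPKM (SD, n = 3) and Plvap at 63.9 ± 12.8, which do not differ beyond their spread. Cldn5 followed at 38.6 ± 5.29, Egfl7 at 32.5 ± 6.72 and Eng at 31.0 ± 5.41, again within each other's spread. Vwf (0.328), Sele (0.0447) and Selp (0.0437) were the least abundant. Between sham and AKI_PBS the mean level of Nos3 went from 1.86 to 7.02 RPKM and that of S1pr1 from 2.94 to 7.22, while Igfbp5 went from 67.9 to 13.5, Angpt2 from 9.93 to 3.61 and Icam2 from 9.23 to 2.89.

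**Figure D4:**
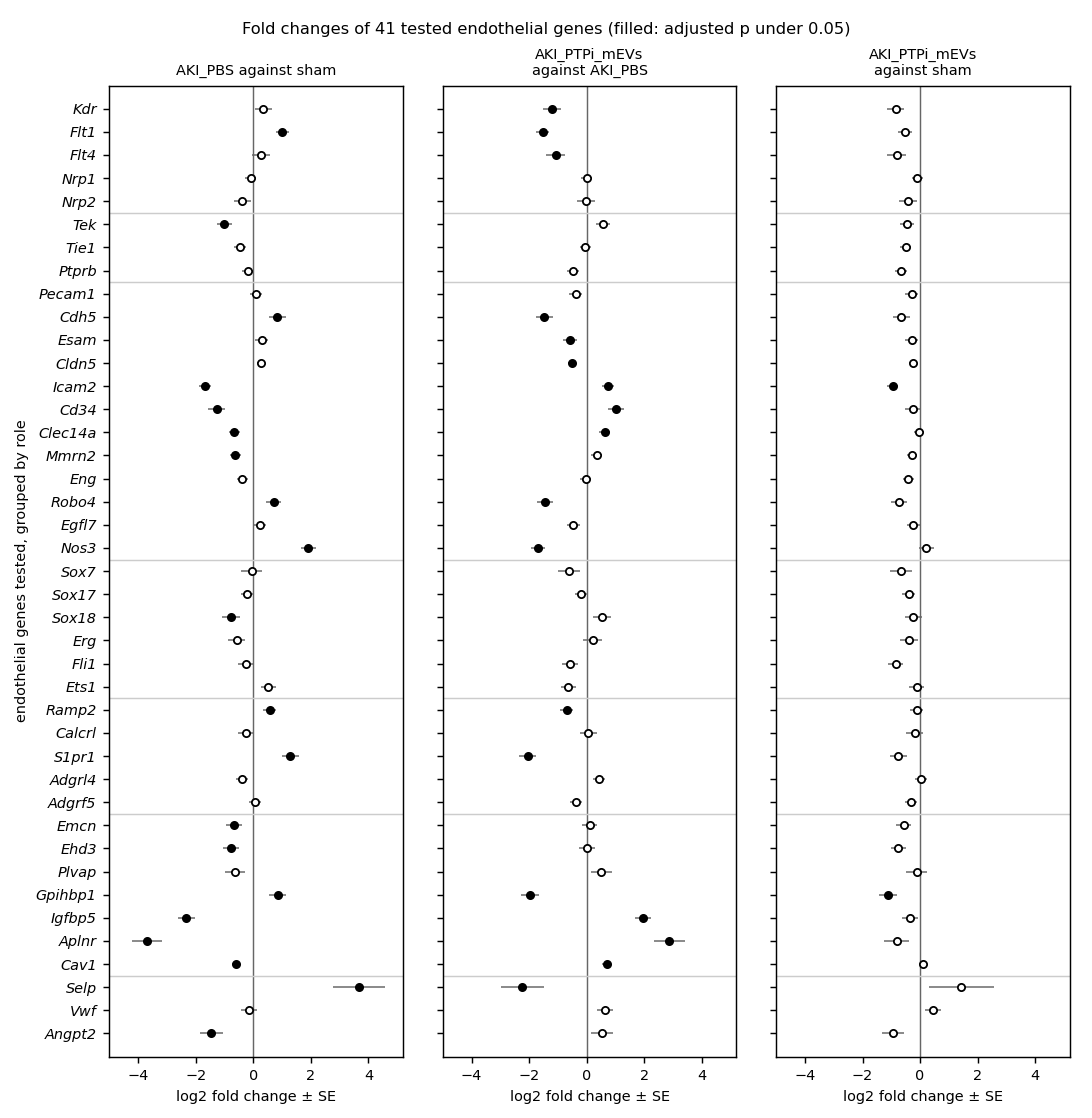
Log2 fold change (point) with its SE (line) of the 41 tested genes in the 3 contrasts, grouped by role, with filled points at an adjusted p under 0.05. In the first panel 8 filled points lie right of 0 and 12 left, in the second 6 right and 12 left, and in the third 2 left, with 36 of 41 points below 0.

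Of 8 ligand genes, 2 rose, 4 fell and 2 were not called after injury (55.7% of all genes called), and 1 was higher and 3 lower with vesicles than in AKI_PBS (51.1% of all genes called). Adm, adrenomedullin, rose (0.92 ± 0.16, adjusted p 0.00029), as did Pgf, placental growth factor, a ligand of FLT1 (1.89 ± 0.38, adjusted p 0.0011). Vegfa, made mainly by podocytes and tubules, fell (-0.70 ± 0.19, adjusted p 0.0071). Angpt1, the activating ligand of TEK, made by mural and stromal cells, had 10.7, 10.7 and 8.33 CPM in sham, 4.58, 3.77 and 3.89 in AKI_PBS and 8.35, 7.64 and 13.6 in vesicle-treated kidneys (-1.28 ± 0.26, adjusted p 0.0011, then 1.27 ± 0.26, adjusted p 0.0013). Angpt1, Angpt2 and Tek were thus all lower in AKI_PBS than in sham.

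A second list of activation and flow-response genes, which many other kidney cells also express, mostly rose. After injury 7 of 8 were higher and 0 lower, beside 27.8% and 27.9% of all genes, with a median of 1.69 beside 0.03 over all genes. The list was chosen with earlier results of these data known, so this share is no independent support for a rise of activation genes. Klf4, a flow-responsive transcription factor, rose by 2.40 ± 0.27 (adjusted p 1.4e-05), Thbd, the anticoagulant receptor thrombomodulin, by 2.16 ± 0.26 (adjusted p 2.0e-05) and Apold1, an early-response gene of endothelium, by 2.16 ± 0.31 (adjusted p 8.6e-05). Icam1, the leukocyte adhesion molecule, rose by 1.22 ± 0.20 (adjusted p 0.00024). With vesicles 5 of the 8 were lower than in AKI_PBS (25.8% of all genes), with Klf4 at -2.38 ± 0.27, Thbd at -2.04 ± 0.25 and Apold1 at -2.89 ± 0.33. Icam1 was not among them (0.28 ± 0.19, adjusted p 0.24), and was above sham in vesicle-treated kidneys (1.5 ± 0.20, adjusted p 0.00076), with 20.1, 22.0 and 22.0 CPM in sham against 50.8, 77.2 and 53.8. In that contrast with sham, 1 of the 8 was higher and 1 lower, beside 7.43% and 5.79% of all genes. Of 12 Notch and arterial genes, 1 rose after injury (Notch1, 0.50 ± 0.16, adjusted p 0.018) and 1 fell (Acvrl1, a BMP receptor, -0.87 ± 0.24, adjusted p 0.0073), beside 27.8% and 27.9% of all genes. With vesicles 1 of the 12 was higher and 2 lower than in AKI_PBS, beside 25.4% and 25.8% of all genes.

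**Figure D5:**
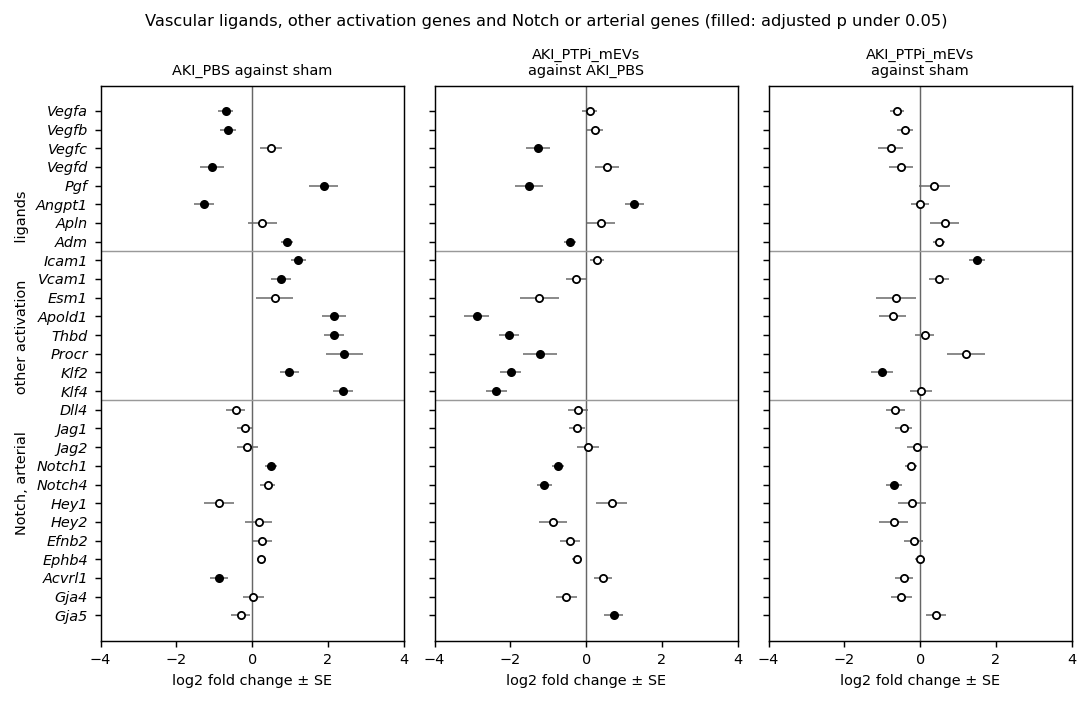
Log2 fold change (point) with its SE (line) of 8 vascular ligands, 8 further activation genes and 12 Notch or arterial genes in the 3 contrasts, with filled points at an adjusted p under 0.05. In the first panel 7 of the 8 activation genes are filled and right of 0, and in the second 5 of them are filled and left of 0, while 2 of the 12 Notch and arterial genes are filled in the first panel and 3 in the second, with Notch4 lowest there at -1.10.

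Markers of other cells in the tissue moved with the groups too, and their part in the endothelial results was not tested. The counts of called markers below stand beside 27.8% of all genes higher and 27.9% lower after injury, and 25.4% higher and 25.8% lower with vesicles. The 7 podocyte markers, from cells that touch the glomerular endothelium and share some of its genes, summed to 239 to 291 CPM in sham, 354 to 460 in AKI_PBS and 254 in each vesicle-treated library, and 4 of 7 rose after injury and 5 of 7 were lower with vesicles than in AKI_PBS, among them Wt1 (1.08 ± 0.15, then -1.02 ± 0.15) and Synpo (0.85 ± 0.14, then -0.69 ± 0.14). The 9 mural markers (pericytes and smooth muscle) summed to 332 to 345, 337 to 427 and 194 to 356 CPM, with 3 rises and 1 fall after injury, including Mcam, which endothelium also makes (1.63 ± 0.19). The 6 fibroblast markers summed to 158 to 257, 137 to 183 and 166 to 379 CPM, with 1 of 6 lower after injury, and the 5 lymphatic markers to 36.8 to 54.8, 30.9 to 33.8 and 31.2 to 37.7 CPM, with 2 of 5 higher and 2 lower; 1 of the higher ones, Lyve1, passed the filter only through AKI_PBS. The 6 proximal tubule markers, from the main epithelium of the cortex, summed to 7486 to 9722 CPM in sham, 2480 to 4101 in AKI_PBS and 5681 to 8723 with vesicles, and 5 of 6 fell after injury. In vesicle-treated against AKI_PBS kidneys, 5 of 6 proximal tubule and 2 of 6 fibroblast markers were higher and 0 lower. There 1 mural marker was higher and 5 lower, and 1 lymphatic marker was higher and 1, Lyve1, lower.

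Blood cells can also carry Selp, Pecam1 and Icam2, and their share in these levels was not tested. The 6 neutrophil markers summed to 0.406 to 0.588 CPM in sham, 12.6 to 26.0 in AKI_PBS and 1.84 to 2.29 with vesicles, and S100a8, Retnlg and Mmp8 were at 0 in all sham libraries. All 6 were called higher after injury, but apart from Csf3r they passed the filter through the AKI_PBS libraries alone and so had to differ. The 5 platelet markers summed to 17.8 to 21.7, 15.4 to 48.1 and 15.4 to 18.2 CPM, 2 of 3 tested were called higher after injury (Ppbp, and Pf4, which passed the filter only through AKI_PBS), and Gp1bb was at 0 in all sham and vesicle-treated libraries. Ppbp, a platelet chemokine, had 5.79, 16.5 and 1.77 CPM in AKI_PBS 1 to 3. The 5 erythroid markers summed to 91.6 to 123, 113 to 256 and 20.6 to 48.1 CPM, with 1 of 5 higher after injury and all 5 lower in vesicle-treated than in AKI_PBS kidneys. The 6 macrophage markers summed to 94.99 to 121, 64.4 to 109.6 and 67.0 to 83.2 CPM, with 1 higher and 2 lower after injury, of which Adgre1 would not have passed the filter without sham. In vesicle-treated against AKI_PBS kidneys, 2 macrophage markers were higher and 0 lower. There 5 of 6 neutrophil and 2 of 3 tested platelet markers were lower and 0 higher, and the filter limits given above hold for these calls too.

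Ptpn1, the target of the siRNA, had 80.9, 90.5 and 98.8 CPM in sham, 123, 148 and 170.4 in AKI_PBS, and 106, 106 and 94.0 in vesicle-treated kidneys. It rose after injury (0.71 ± 0.15, adjusted p 0.0012). It was lower in vesicle-treated than in AKI_PBS kidneys (-0.53 ± 0.15, adjusted p 0.0086), a contrast that called 51.1% of all genes. Against sham, vesicle-treated kidneys gave 0.18 ± 0.15 (adjusted p 0.46). Whether the siRNA lowered Ptpn1 was not tested.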

How the data were processed

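The authors deposited whole-number counts per gene for the 9 libraries, made with STAR and HTSeq (no versions given), per the submitters' processing notes. Those notes name GRCh38.p14, a human build, although every identifier is a mouse Ensembl one, and the build behind the counts was not settled. Whether counting used strand is not given in the sources used here, and reads of a gene and its antisense or overlapping partner cannot be told apart. Per the labels' protocols, libraries came from total RNA with a Tn5-based kit, and no molecular identifiers are named, so the floor of 3 counts covers counting error only.

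From the counts, edgeR 4.0.16 in R 4.3.3 was used as follows: filterByExpr by group kept 17036 genes, TMM scaled the libraries, and glmQLFit (robust) was fitted once to all 9 libraries with a mean per group, leaving 6 residual degrees of freedom. Groups were compared with glmQLFTest and Benjamini-Hochberg adjustment, and genes with adjusted p under 0.05 were called. SEs were derived from the fold change and its F statistic. The test was also run on simulated counts in which far fewer genes changed than were called here. That run does not show the rate of false calls in these data. CPM use the TMM-scaled library sizes. RPKM divide them by exon-union lengths of GENCODE M21, and promoters are from the RefSeq table of GRCm38.p6. Symbols were matched with the identifier's version dropped. Of all 56923 identifiers, 52073 had a symbol. One vesicle-treated library has a variant spelling in its title and was grouped by its treatment label. No 2 libraries of a group agreed within sampling noise. Columns without a sample numbered 0.

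The members and lists were chosen with earlier results of these data known. Values in every library are given for the activation and capillary identity genes, Pecam1, Cdh5, and the 3 genes of each other role with the smallest adjusted p in AKI_PBS against sham. Genes of the further lists are named by the same order, at most 4 a list. Retnlg, Gp1bb, Csf3r, Lyve1, Pf4, Adgre1 and Notch4 were named after their values were seen. Alternatives were edgeR's relative log expression factors, library totals, DESeq2 1.42.0, voom in limma 3.58.1, other count filters, only the 2 groups compared, a replicate block, a minimum fold change and leaving out each library.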

Additional observations from a re-analysis of the deposited data

How the results depend on the processing

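No alternative reversed a called fold change of the 41 genes. In AKI_PBS against sham, 12 of the 20 calls were kept under every alternative fit (Angpt2, Aplnr, Cav1, Cd34, Clec14a, Flt1, Icam2, Igfbp5, Nos3, S1pr1, Tek and Selp, the last of which passed the count filter only through AKI_PBS), and in vesicle-treated against AKI_PBS 15 of 18 were (all but Esam, Ramp2 and Selp). Requiring a log2 fold change of at least 1 lowered the first count to 10 (4 higher, 6 lower), the higher calls with vesicles against AKI_PBS to 3, and the calls against sham to 1. Leaving out 1 library at a time gave 13 to 21 calls (4 to 8 higher, 8 to 14 lower) in AKI_PBS against sham and 16 to 23 in vesicle-treated against AKI_PBS. The shares of all genes called in these fits were 45.7% to 54.7% and 41.4% to 49.6%. Against sham the 2 lower calls became 6 with DESeq2, 1 with limma voom, 11 with no count filter, 9 with only the 2 groups fitted, and 1 to 6 leaving out 1 library, with 0 higher in each. In the same order, 15.5%, 13.1%, 8.79%, 20.5% and 4.95% to 19.5% of all genes were called. The replicate block gave 17, 18 and 2 calls, beside 54.1%, 49.8% and 12% of all genes. Deviations from the group means correlated at -0.19 to 0.11 between same-numbered libraries and at -0.17 to 0.15 between differently numbered ones. This check cannot exclude a shared day or litter, because the labels name neither, so pairing was not settled. Scaling by library totals moved the median of all genes to 0.10 in AKI_PBS against sham and to -0.13 in vesicle-treated against AKI_PBS. Depth limits Sele and Selp, whose sham counts are near the floor, and Aplnr, which had 19 counts over the AKI_PBS libraries. Where a call was lost, the cause was not tested.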
